A study of Mus musculus with 16 samples.

Results

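miR-143 and miR-145 were followed across the 4 groups of an ovalbumin-driven mouse model of allergic airways disease (AAD). Their rows were taken from the arrays by name, as every row called mmu-miR-143 or mmu-miR-145 with or without a suffix for the arm of the hairpin. This gave 3 of the 611 mouse miRNAs on the array, namely miR-143-3p, miR-145-5p and miR-145-3p, and all 3 were among the 266 miRNAs tested. The smooth muscle name describes where these miRNAs are known to be enriched. Here they were measured in whole lung, in which fewer cells of a type and less RNA per cell cannot be told apart.

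Total RNA of whole lungs of specific pathogen-free BALB/c mice aged 8 to 12 weeks was hybridised to Agilent 1-colour miRNA arrays, on which a miRNA has several probes and a probe has repeated spots. PBS/PBS mice (2 arrays) were injected with 1 mg Alhydrogel, an aluminium hydroxide adjuvant, without allergen on day 0 and were challenged with PBS. PBS/OVA mice (4 arrays) were injected in the same way and were challenged intranasally with 10 μg OVA (ovalbumin, a protein of hen's egg) on each day from day 12 to day 15. OVA/OVA mice (6 arrays) were sensitised with 50 μg OVA and 1 mg Alhydrogel on day 0 and were challenged like PBS/OVA mice. OVA/OVA DEX mice (4 arrays) were OVA/OVA mice that received dexamethasone, a synthetic glucocorticoid, by injection at 3 mg/kg on day 11 and on alternate days from then on, and the labels give PBS as the treatment of the other 3 groups. Lungs were taken 24 hours after the final challenge. The labels number the arrays within a group without naming the animals, so p-values measure the spread between these arrays.

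The miR-143 and miR-145 hairpins lie next to each other, inside the long noncoding RNA gene that RefSeq names Carmn, and are transcribed together. The pathway is best known from smooth muscle. Serum response factor and its cofactor myocardin switch the locus on, and the mature miRNAs repress factors such as KLF4 and KLF5 that keep smooth muscle cells in a proliferative state. In the lung the known sites are the muscle of airways and vessels, with pericytes and fibroblasts as further sources.

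The array sums its 2 probes for miR-143-3p, its 2 probes for miR-145-5p and its 4 probes for miR-145-3p. The other arm of the miR-143 hairpin has no row on the array. Feature Extraction, the scanner software, detected miR-143-3p and miR-145-5p on all 16 arrays and miR-145-3p on 7. Of the spots of miR-143-3p, 320 of 320 were well above background, against 294 of 320 for miR-145-5p and 4 of 320 for miR-145-3p. No spot of miR-145-3p was well above background on any OVA/OVA or OVA/OVA DEX array, so its values are those of a signal close to background. Its log2 differences are given below beside those of the main arms, but are not read as measured changes.

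Arrays differed in brightness and in slide. The 75th percentile of signal before scaling was 2609 and 3169 on the PBS/PBS arrays, 1700 to 2253 on PBS/OVA arrays, 814 to 2375 on OVA/OVA arrays and 1408 to 1915 with DEX, and the 4 dimmest arrays were OVA/OVA arrays. The arrays came from 2 slides. Slide 1 held both PBS/PBS arrays and 2 arrays of each other group, and slide 2 held 4 OVA/OVA arrays with 2 arrays each of PBS/OVA and OVA/OVA DEX. Levels are given as log2 of the background-subtracted intensity, divided by the 75th percentile of the array among 206 miRNAs that were detected throughout. A level compares arrays for 1 miRNA, and levels of different miRNAs are not compared.

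miR-143-3p, the main arm of its hairpin, varied little between arrays and had its highest mean in OVA/OVA DEX lungs. Its log2 level was 11.35 and 11.45 on the PBS/PBS arrays. It was 11.39, 11.23, 11.40 and 11.30 on the PBS/OVA arrays. On the OVA/OVA arrays the lowest level was 11.12, the median 11.28 and the highest 11.41. The 3 groups without dexamethasone overlapped, and their arrays lay between 11.12 and 11.45. The OVA/OVA DEX arrays gave 11.76, 11.39, 11.50 and 11.70, and 1 of them lay below the highest OVA/OVA array.

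miR-145-5p, the main arm of the neighbouring hairpin, followed the same order of groups. Its log2 level was 6.50 and 6.63 on the PBS/PBS arrays and 6.46, 6.17, 6.64 and 6.29 on the PBS/OVA arrays. On the OVA/OVA arrays the lowest level was 6.19, the median 6.34 and the highest 6.70. The highest OVA/OVA array stood apart from the other 5, which lay at or below 6.35. The OVA/OVA DEX arrays gave 7.08, 6.48, 6.62 and 7.06, so that 2 arrays lay above all others of the series and 2 lay below the highest OVA/OVA array.

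miR-145-3p, the minor arm of the same hairpin, was detected on 2 of 2 PBS/PBS, 1 of 4 PBS/OVA, 1 of 6 OVA/OVA and 3 of 4 OVA/OVA DEX arrays. It was tested because it was detected on both PBS/PBS arrays. Its log2 level was 3.85 and 4.03 in PBS/PBS, 4.08, 3.50, 4.17 and 3.86 in PBS/OVA, and 3.34 to 4.06 with a median of 3.66 in OVA/OVA. The OVA/OVA DEX arrays gave 4.65, 4.12, 3.87 and 4.70, and the 2 highest were the same arrays as for the other 2 miRNAs.

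**Figure D1:**
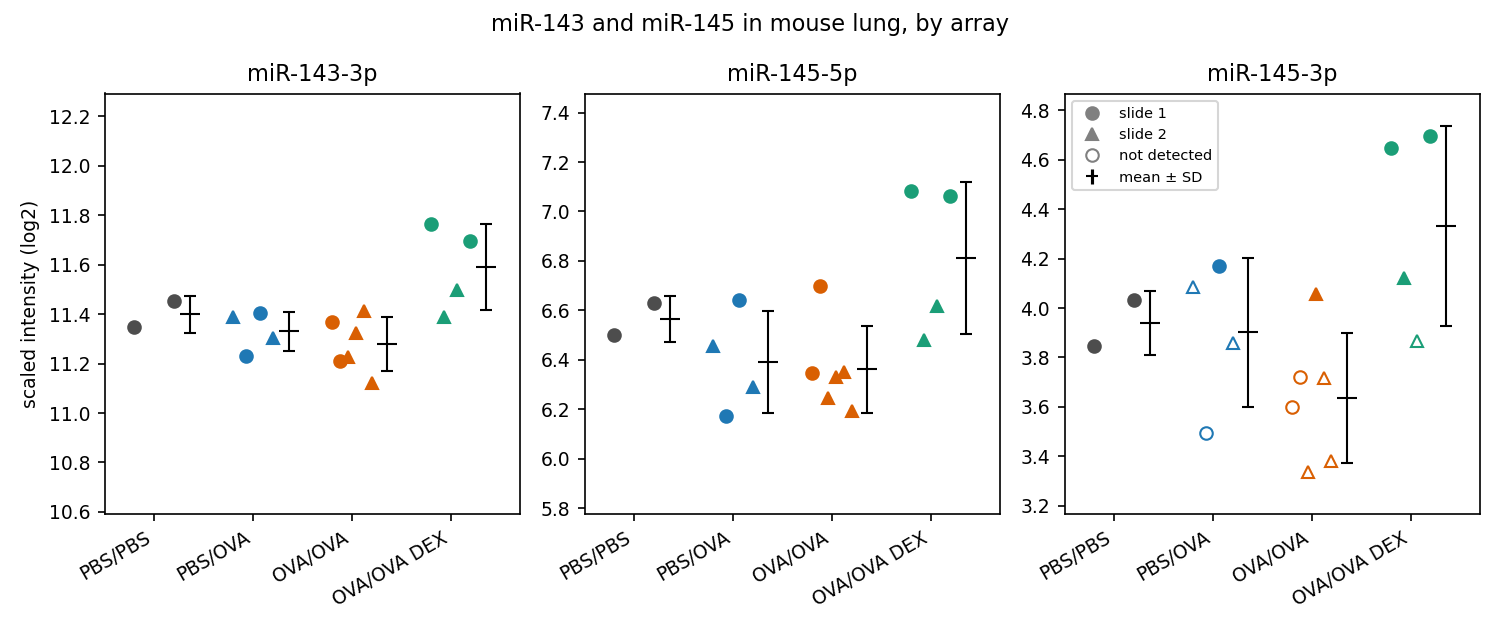
Scaled log2 intensity (y axis, each panel spanning the same number of log2 units) of miR-143-3p, miR-145-5p and miR-145-3p on each array of the 4 groups (x axis). Circles are arrays of slide 1 and triangles of slide 2, open symbols mark arrays on which the miRNA was not detected, and bars are the mean ± SD; the 2 OVA/OVA DEX arrays of slide 1 are the highest of the series in all 3 panels.

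Dexamethasone-treated allergic lungs held more miR-143-3p and miR-145-5p than untreated allergic lungs, by a small margin. The log2 level of miR-143-3p averaged 11.59 ± 0.17 (SD, n = 4) with dexamethasone against 11.28 ± 0.11 (SD, n = 6) for OVA/OVA alone, a difference of 0.31 (SE 0.083, adjusted p = 0.0078 by limma). This is a 1.24-fold higher level with a 95% interval of 1.10 to 1.40. The OVA/OVA DEX array was the higher in 23 of the 24 possible pairs of arrays. Neither miRNA reached a 2-fold change.

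For miR-145-5p the log2 level averaged 6.81 ± 0.31 (SD, n = 4) with dexamethasone against 6.36 ± 0.18 (SD, n = 6) for OVA/OVA alone. The difference was 0.45 (SE 0.139, adjusted p = 0.0149 by limma), a 1.37-fold higher level with a 95% interval of 1.11 to 1.68, and the OVA/OVA DEX array was the higher in 22 of 24 pairs. Both passed the threshold of an adjusted p under 0.05. For miR-145-3p the fit gave a log2 difference of 0.70 (SE 0.190, adjusted p = 0.0083 by limma), but no spot was well above background in either group, so this value is not a further measured rise. Across all miRNAs 142 of 266 (53.4%) passed in this comparison, and 86 (32.3%) were higher in OVA/OVA DEX and 56 (21.1%) lower, with a median difference of 0.09, so a call was common in it. By size of the log2 difference miR-143-3p ranked 74 and miR-145-5p 46 from the highest of 266.

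The probes of a miRNA gave the same direction where they were above background. The 2 probes of miR-143-3p, each read alone, gave log2 differences of 0.38 and 0.26, and the 2 of miR-145-5p gave 0.51 and 0.43, all 4 with an adjusted p under 0.05. On OVA/OVA DEX replicate 4 the spots of the miR-143-3p probe with 0.26 scattered widely. Their coefficient of variation was 41.8%, against 18.8% or less on the other arrays. The probe's share of the miR-143-3p signal was lowest there, at 51.7%. Of the 4 probes of miR-145-3p, 1 passed alone with a log2 difference of 0.78, while 3 did not, with 0.43, 0.29 and -0.21. The processed log2 values that the authors deposited for these arrays gave 0.36 for miR-143-3p (adjusted p = 0.00071 by limma) and 0.48 for miR-145-5p (adjusted p = 0.0039 by limma). A deposited row was used only if, after an offset per array, it lay within 0.15 of the log2 signal of the scanner software. Mainly the scaling between arrays could therefore differ, and these values are no independent support. By the exact Mann-Whitney test miR-145-5p did not pass (adjusted p = 0.070).

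The difference was larger on slide 1 than on slide 2, though a test of this did not pass. On slide 1 the OVA/OVA DEX arrays held miR-143-3p at 11.73 and miR-145-5p at 7.07 on average, and on slide 2 at 11.44 and 6.55. Within slide 1, with 2 OVA/OVA DEX and 2 OVA/OVA arrays, the log2 differences were 0.44, 0.55 and 1.01 for miR-143-3p, miR-145-5p and miR-145-3p (adjusted p = 0.056, 0.098 and 0.034 by limma). Within slide 2, with 2 and 4 arrays, they were 0.17, 0.27 and 0.37 (adjusted p = 0.24, 0.079 and 0.27 by limma). A test of the difference between slides gave 0.27, 0.28 and 0.64 on the log2 scale (adjusted p = 0.81, 0.86 and 0.81 by limma). The within-slide fits, this test and the fit without 2 arrays given next were added once the data were known. With slide as a block, entered as a covariate in the fit, the differences were 0.30, 0.41 and 0.67, and miR-143-3p and miR-145-5p passed.

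The call rested on the 2 OVA/OVA DEX arrays of slide 1. Without both, the log2 differences were 0.17, 0.19 and 0.36 and none passed (adjusted p = 0.14, 0.30 and 0.17 by limma), while 103 miRNAs in all did. For miR-145-5p leaving out either of them was enough, with 0.36 and adjusted p = 0.056 without OVA/OVA DEX replicate 1 and 0.37 and adjusted p = 0.052 without replicate 4.

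The scaling between arrays changed the size of the difference as well. Without scaling the log2 differences were 0.60, 0.74 and 0.99 for miR-143-3p, miR-145-5p and miR-145-3p, none passed (adjusted p = 0.24, 0.19 and 0.13 by limma) and the median of all miRNAs was 0.38, and with scaling by control spots they were 0.94, 1.08 and 1.33 with a median of 0.72. Relative to the median of all miRNAs, miR-143-3p was higher in OVA/OVA DEX by 0.22, miR-145-5p by 0.36 and miR-145-3p by 0.61, and these 3 values were equal to 2 decimals without scaling, with control spots and with the percentile taken over all miRNAs. That equality was fixed in advance, because a single factor per array moves a miRNA and the median alike. Quantile normalization changed these 3 values to -0.04, 0.49 and 0.79, and neither miR-143-3p nor miR-145-5p then passed (differences of 0.11 and 0.63, adjusted p = 0.24 and 0.057 by limma). Normexp background correction, run with a constant of 50 added to each spot, changed them to 0.46, 0.18 and -0.05. The median signal of the miR-145-5p probes was 27 and 76, and that of the miR-145-3p probes was at most 8.5. The constant was thus large beside these signals, and its part in the change was not tested. Under normexp miR-145-5p differed by 0.02 (adjusted p = 0.93 by limma) and miR-145-3p by -0.21 (adjusted p = 0.53 by limma). With array brightness as a covariate the differences were 0.26, 0.40 and 0.54, and miR-143-3p and miR-145-5p passed.

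No other pair of groups gave a call for these miRNAs by the main test. Between OVA/OVA and PBS/PBS lungs, the comparison for allergic disease against healthy controls, miR-143-3p differed by -0.12 on the log2 scale (95% interval -0.35 to 0.10), miR-145-5p by -0.20 (-0.58 to 0.17) and miR-145-3p by -0.30 (-0.82 to 0.21). Of all miRNAs 67 of 266 (25.2%) passed there. Without scaling, with scaling by control spots or with the percentile taken over all miRNAs, miR-143-3p and miR-145-5p passed as lower in OVA/OVA lungs, and the log2 differences were -1.22, -0.78 and -0.66 and, for the latter, -1.30, -0.86 and -0.74. The median of all miRNAs was then -1.11, -0.67 and -0.56. miR-145-3p passed there without scaling (-1.40), and under normexp correction it passed in the other direction (0.90, adjusted p = 0.025 by limma). The median of all miRNAs was 0.54 under normexp.

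Between OVA/OVA and PBS/OVA lungs, which share the OVA challenge and differ in sensitisation, the log2 differences were -0.05 (95% interval -0.23 to 0.12) for miR-143-3p, -0.03 (-0.33 to 0.27) for miR-145-5p and -0.27 (-0.68 to 0.14) for miR-145-3p, while 84 of 266 miRNAs (31.6%) passed. As a fold the interval for miR-143-3p ran from 0.85 to 1.09. With scaling by control spots miR-143-3p and miR-145-5p passed as lower in OVA/OVA, and the 3 differences were -0.69, -0.67 and -0.91, against a median of all miRNAs of -0.68.

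OVA challenge without sensitisation left no detectable difference. PBS/OVA minus PBS/PBS was -0.07, -0.18 and -0.04 on the log2 scale for miR-143-3p, miR-145-5p and miR-145-3p (adjusted p = 1.0 for each by limma), and 1 of 266 miRNAs (0.376%) passed. OVA/OVA DEX lungs were set against both control groups too. Against PBS/OVA they were higher by 0.26, 0.42 and 0.43 (adjusted p = 0.14, 0.14 and 0.25 by limma), and 6 of 266 miRNAs (2.26%) passed. The unadjusted limma p was 0.014 for miR-143-3p and 0.015 for miR-145-5p. Against PBS/PBS they differed by 0.19, 0.25 and 0.39 (adjusted p = 0.66, 0.73 and 0.66 by limma), where 0 of 266 (0.0%) passed by limma and 18 had an unadjusted limma p under 0.05. The exact Mann-Whitney test also gave 0, but with 4 against 2 arrays its p cannot go below 0.13. In the deposited values miR-143-3p passed against PBS/OVA, with 0.30 (adjusted p = 0.041 by limma). These comparisons share the OVA/OVA DEX arrays with the comparison against OVA/OVA.

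**Figure D2:**
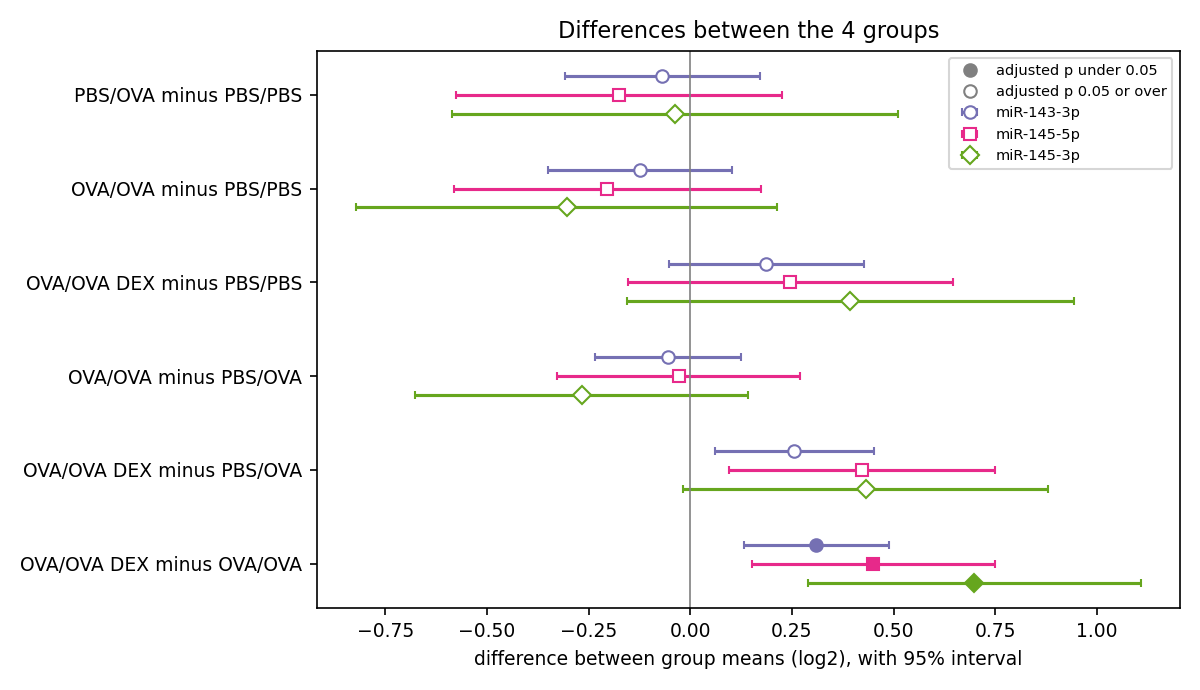
Difference between group means (x axis, log2, with its 95% interval) for the 6 pairs of groups (y axis). Circles are miR-143-3p, squares miR-145-5p and diamonds miR-145-3p, filled where the adjusted p was under 0.05; the only filled symbols are the 3 of OVA/OVA DEX minus OVA/OVA, at 0.31, 0.45 and 0.70, the last from signals near background.

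Ordered by mean level, miR-143-3p ran from OVA/OVA (11.28) through PBS/OVA (11.33) and PBS/PBS (11.40) to OVA/OVA DEX (11.59), and miR-145-5p from OVA/OVA (6.36) through PBS/OVA (6.39) and PBS/PBS (6.57) to OVA/OVA DEX (6.81). The groups next to each other in this order overlapped, and none of those neighbours differed past the threshold. miR-143-3p was among the steadier miRNAs of these lungs. Its SD within groups was 0.12, the 48th smallest of the 206 miRNAs detected on all arrays, where the median was 0.17. miR-145-5p had an SD within groups of 0.22 and ranked 140.

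The ratio of miR-143-3p to miR-145-5p on an array does not depend on how that array was scaled. For PBS/PBS its log2 value was 4.84 ± 0.02 (SD, n = 2), and for PBS/OVA it was 4.94 ± 0.13 (SD, n = 4). For OVA/OVA it was 4.92 ± 0.20 (SD, n = 6), and with dexamethasone 4.78 ± 0.14 (SD, n = 4). The value reflects the probes and not the abundance of the miRNAs. The groups overlapped, and the difference between OVA/OVA DEX and OVA/OVA was -0.14 (exact two-sided permutation test, p = 0.29, adjusted p = 0.80 over 6 pairs of groups). Without OVA/OVA replicate 2 the difference was -0.22 (exact permutation test, adjusted p = 0.095), and the other 5 OVA/OVA arrays, at 4.93 to 5.06, lay above the OVA/OVA DEX arrays, at 4.63 to 4.91. Groups fully apart give the smallest p this test can reach for 4 against 5 arrays. After adjustment over 6 pairs of groups that p could not pass alone, so the test cannot decide here. With each other array of these groups left out in turn the difference ran from -0.18 to -0.092. The smallest p this test can give is 0.0095 for 4 against 6 arrays and 0.13 for 4 against 2. The adjusted p of the other 5 pairs was 0.80 to 0.90 by the same exact test. The ratio of the arms of miR-145 was not tested, because miR-145-3p was detected on 7 of 16 arrays.

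Over the 16 arrays miR-143-3p and miR-145-5p rose and fell together. Pearson's r was 0.84 (permutation test, adjusted p = 0.00019 over 3 pairs) and Spearman's rho 0.69 (permutation test, adjusted p = 0.0036). With each group centred on its mean r was 0.68 (permutation test, adjusted p = 0.0040), and within slide 1 and slide 2, of 8 arrays each, it was 0.83 and 0.90 (exact permutation test, adjusted p = 0.013 and 0.0080). The relation leaned on OVA/OVA DEX replicates 1 and 4, the arrays farthest from the median. Leaving out the farthest arrays narrows the range of levels, which by itself tends to lower r. Without them r was 0.56 (permutation test, p = 0.039) and rho 0.54 (permutation test, p = 0.050) over 14 arrays. Arrays share a scaling factor between miRNAs, and unscaled values gave r = 0.97, quantile normalized values 0.59.

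The signal of miR-145-3p, with 4 of 320 spots well above background, also varied with the main arms. Its r was 0.87 with miR-143-3p and 0.85 with miR-145-5p (permutation test, adjusted p = 0.00012 for each), and 0.69 and 0.63 without the 2 farthest arrays (permutation test, adjusted p = 0.021 and 0.027). Within slide 2 the same pairs gave 0.68 and 0.65 (exact permutation test, adjusted p = 0.082 for each). Unscaled values gave r = 0.97 for each pair, and quantile normalized values 0.56 and 0.90. Under quantile normalization rho with miR-143-3p was 0.41 and did not pass (permutation test, adjusted p = 0.12). Near background, these correlations are not read as shared expression of the minor arm.

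**Figure D3:**
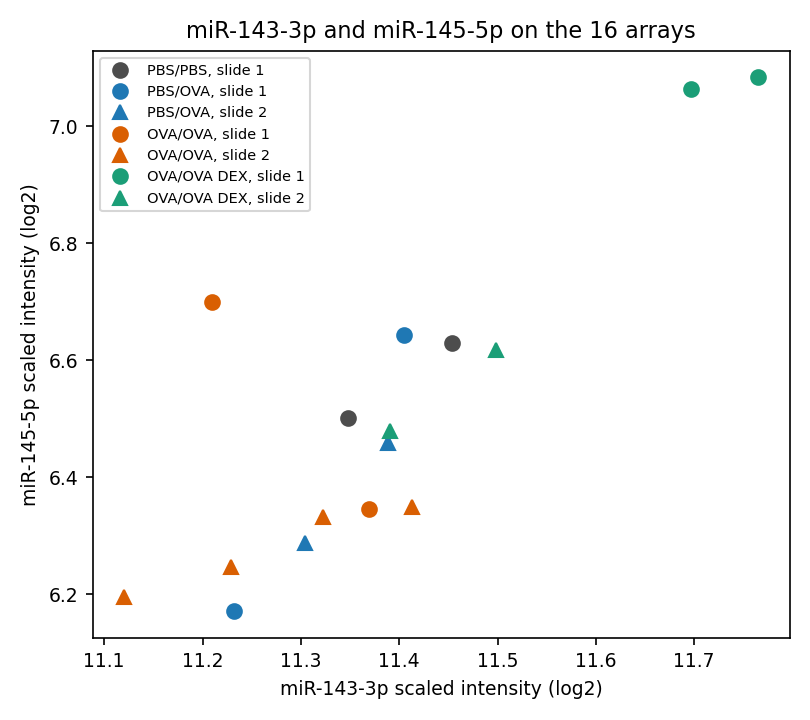
Scaled log2 intensity of miR-145-5p (y axis) against miR-143-3p (x axis), 1 symbol per array, coloured by group, circles for slide 1 and triangles for slide 2. The 2 OVA/OVA DEX arrays of slide 1 lie at the upper right, and OVA/OVA replicate 2 lies above the others at its level of miR-143-3p.

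The miRNAs most like these 2 main arms over the 16 arrays were picked by Pearson's r among 204 other miRNAs detected on all arrays, as a description. For miR-143-3p they were miR-101a-3p (r = 0.88), miR-23a-3p (0.85), miR-144-3p (0.84), miR-27a-3p (0.83) and miR-451 (0.83). For miR-145-5p they were miR-101b-3p (0.82), miR-27a-3p (0.79), miR-101a-3p (0.76), miR-144-3p (0.72) and miR-181a-5p (0.72). By r, miR-143-3p would stand first in the list for miR-145-5p and miR-145-5p would rank 4 in the list for miR-143-3p. miR-144 and miR-451 are miRNAs of red cells, and miR-23a and miR-27a come from a shared transcript.

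The order depended on the measure. With groups centred on their means, miR-101a-3p ranked 4 and miR-451 ranked 25 for miR-143-3p, and for miR-145-5p miR-101b-3p ranked 2 and miR-144-3p ranked 24. Between OVA/OVA DEX and OVA/OVA the log2 differences of these miRNAs ran from 0.26 for miR-27a-3p to 1.06 for miR-144-3p. They were picked for likeness on these same arrays, so their direction is no independent support.

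The mature sequences of several of these miRNAs, and of miRNAs of smooth muscle phenotype described next, are given to show which share a seed, the stretch that pairs with target mRNAs. They are from RefSeq (GRCm38.p6), written 5′ to 3′ with the seed, bases 2 to 8, in capitals.
miR-29a-3p: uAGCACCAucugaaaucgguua
miR-29b-3p: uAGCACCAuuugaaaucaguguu
miR-29c-3p: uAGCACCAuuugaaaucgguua
miR-221-3p: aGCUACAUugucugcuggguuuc
miR-222-3p: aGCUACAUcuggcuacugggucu
miR-21a-5p: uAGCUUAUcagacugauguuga
miR-101a-3p: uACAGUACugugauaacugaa
miR-144-3p: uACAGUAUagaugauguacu
miR-23a-3p: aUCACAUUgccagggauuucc
miR-27a-3p: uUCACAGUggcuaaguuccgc
The 3 miR-29 miRNAs share 1 seed, and so do miR-221-3p and miR-222-3p. miR-101a-3p and miR-144-3p, both among the miRNAs most like the main arms, have equal letters at 6 of 7 seed positions, and so do miR-23a-3p and miR-27a-3p.

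Other miRNAs known to act on the smooth muscle phenotype were compared between treated and untreated allergic lungs. Of a list of 17, all were tested, 10 were higher in OVA/OVA DEX than in OVA/OVA, 1 was lower and 6 did not pass, where 32.3% of all miRNAs were higher and 21.1% lower, with a median log2 difference of 0.36 against 0.09 over all miRNAs. The muscle miRNAs miR-133a-3p and miR-133b-3p rose by 0.88 (SE 0.254, adjusted p = 0.012 by limma) and 0.93 (SE 0.272, adjusted p = 0.012 by limma), and miR-1a-3p gave 0.81 without passing (adjusted p = 0.052 by limma). The miR-29 family, which represses collagen and other matrix genes, rose with all 3 members, by 0.36, 0.43 and 0.49 for miR-29a-3p, miR-29b-3p and miR-29c-3p. miR-24-3p, miR-26a-5p, miR-31-5p, miR-100-5p and miR-10a-5p rose by 0.49, 0.50, 0.24, 0.26 and 0.51.

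The miRNA that fell was miR-21-5p, written miR-21a-5p above, which is induced in many inflamed tissues, and its difference was -1.45 on the log2 scale (SE 0.178, adjusted p = 4.2e-05 by limma). The pair miR-221-3p and miR-222-3p, known to favour the proliferative state of smooth muscle cells, did not pass, with -0.04 and -0.42 (adjusted p = 0.75 and 0.11 by limma). miR-25-3p gave 0.03, miR-146a-5p -0.06 and miR-204-5p 0.07, and miR-204-5p was detected on 2 of 2 PBS/PBS, 3 of 4 PBS/OVA, 5 of 6 OVA/OVA and 2 of 4 OVA/OVA DEX arrays. The median over all miRNAs was 0.15 under quantile normalization and 0.38 without scaling, and the list then counted 4 and 1 miRNAs past the threshold in place of 11.

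In OVA/OVA against PBS/OVA the same list had 1 miRNA higher, miR-21-5p by 0.92, and 5 lower, which were miR-133a-3p (-0.84), miR-133b-3p (-0.90), miR-24-3p (-0.37), miR-31-5p (-0.40) and miR-100-5p (-0.31). Its median was -0.24 against -0.04 over all miRNAs, of which 31.6% passed, a share near that of the list. The list's count of 6 fell to 0 without scaling, to 2 under quantile normalization or normexp and to 3 with the percentile over all miRNAs. The log2 differences of miR-143-3p and miR-145-5p in that comparison were -0.05 and -0.03, and neither passed. Both comparisons share the OVA/OVA arrays.

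**Figure D4:**
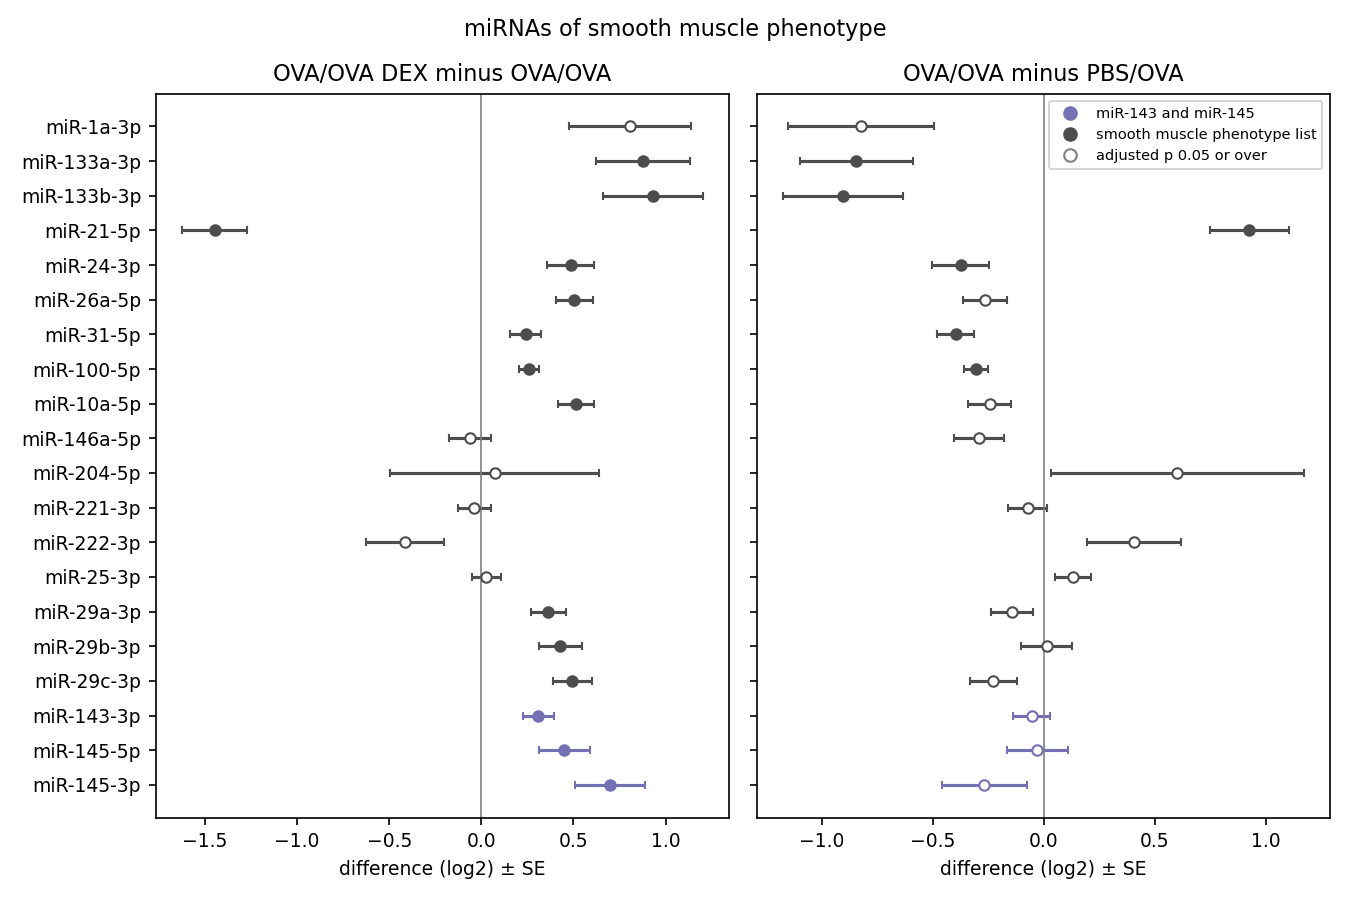
Log2 difference ± SE (x axis) of the 17 miRNAs of smooth muscle phenotype (grey) and of miR-143 and miR-145 (violet) for OVA/OVA DEX minus OVA/OVA (left) and OVA/OVA minus PBS/OVA (right); filled symbols have an adjusted p under 0.05. miR-143-3p and miR-145-5p are filled at 0.31 and 0.45 on the left and open at -0.05 and -0.03 on the right.

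Marker miRNAs of other cells differed between OVA/OVA DEX and OVA/OVA lungs as well, and their part in the difference of miR-143 and miR-145 was not tested. Of all miRNAs 32.3% were higher there and 21.1% lower. Of 6 haematopoietic miRNAs, which mark blood-derived cells, 5 fell and 0 rose, with a median of -0.73, and 1 passed without scaling and 3 with the percentile over all miRNAs. The log2 differences were -2.60 for miR-155-5p, -1.05 for miR-142-3p, -0.90 for miR-342-3p and -0.57 for miR-142-5p. The summed level of a list is the log2 of its added scaled intensities, so its brightest miRNAs weigh most. For this list it was 14.18 to 14.74 on the OVA/OVA DEX arrays and 15.02 to 15.58 on the OVA/OVA arrays. The ranges of these groups did not overlap, and among single miRNAs this held for 83 of 266 in the same comparison.

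The markers of fibroblasts, endothelium, striated muscle and red cells were mostly higher in OVA/OVA DEX. Without scaling 0 of the fibroblast, endothelial and striated muscle markers passed. The fibroblast count was 1 with the percentile over all miRNAs, under quantile normalization or under normexp, the striated muscle count was 1 under normexp, and the red cell count was 1 under quantile normalization. Of 4 tested fibroblast miRNAs 3 rose, by 0.32 for miR-199a-5p, 0.27 for miR-199a-3p and 0.27 for miR-199b-5p, with summed levels of 12.78 to 13.04 against 12.55 to 12.81. miR-126-3p and miR-126-5p of endothelium rose by 0.30 and 0.88, with summed levels of 15.32 to 15.57 against 14.90 to 15.32. Of the red cell markers miR-451 and miR-144-3p rose by 1.04 and 1.06, with summed levels of 16.61 to 17.06 against 15.18 to 16.11, which did not overlap. Of 4 tested miRNAs of striated muscle 3 rose, miR-208b-3p by 0.80 and both miR-133 miRNAs, which the smooth muscle phenotype list also holds, and the summed levels of 10.78 to 11.52 overlapped with 9.37 to 11.10.

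Epithelial markers gave no common direction, and their count of 2 fell to 0 without scaling and to 1 under quantile normalization, normexp or the percentile over all miRNAs. Of 5 tested miRNAs 1 rose and 1 fell, with log2 differences of 0.27 for miR-200a-3p and -0.25 for miR-200c-3p, with summed levels of 13.06 to 13.35 against 13.15 to 13.25. Of 4 tested miRNAs of ciliated epithelium 2 rose, miR-34b-5p by 0.28 and miR-34c-5p by 0.36. The other 2 fell, miR-449a-5p with a log2 difference of -2.04 and miR-449c-5p, which was detected on 6 of 6 OVA/OVA and 0 of 4 OVA/OVA DEX arrays. Without scaling 2 of these 4 passed. Summed levels of ciliated epithelium were 11.80 to 12.15 against 11.95 to 12.39. The listed markers miR-206-3p, miR-499-5p and miR-449b were detected on 0 of 16 arrays.

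On the 2 OVA/OVA DEX arrays of slide 1, where miR-143 and miR-145 were highest, the summed levels of the 4 lists given here overlapped with those on slide 2. With 2 arrays per slide an overlap is common by chance, and a link of these lists to miR-143 and miR-145 was not tested. The fibroblast list gave 13.04 and 12.78 on slide 1 against 13.01 and 12.79 on slide 2. The endothelial list gave 15.57 and 15.32 against 15.48 and 15.48. The red cell list gave 17.06 and 16.61 against 16.67 and 16.72, and the striated muscle list gave 10.83 and 11.41 against 10.78 and 11.52.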

How the data were processed

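The authors deposited 1 scanner file per array, with the background-subtracted intensity of every spot as given by Agilent Feature Extraction 10.7.3.1 and no scaling between arrays, and a table of processed log2 values, whose normalization is not given in the sources used here beyond the name of the software, Genespring GX, and which served as an alternative. Of 13000 spots per array, those flagged as outliers and those for controls were not used. Spots of a probe were averaged, probes of a miRNA summed, and the sums divided by the 75th percentile of the array among 206 miRNAs that were detected throughout. Scaled signals were raised to a floor of 2.61 before log2 was taken. 0 spots were saturated, and 224 to 301 miRNAs were detected per array. The number of arrays limits the precision.

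The 4 groups were fitted together with limma 3.58.1 in R 4.3.3, with p-values adjusted by Benjamini-Hochberg for 266 miRNAs, those that all arrays of some group detected. A call is an adjusted p under 0.05. The fit was tested on simulated data. The study's methods name the Mann-Whitney test, which was run as an alternative. Exact permutation tests were used for ratios, and 100000 resamples for correlations over 16 arrays, with exact enumeration within slides, in Python 3.11.15 with scipy 1.17.1.

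The members, lists and tests were chosen with earlier results of these data known. The text names miR-143 and miR-145, the 5 miRNAs most correlated with each main arm, and from each list those that passed in a comparison with OVA/OVA, up to 4 of the largest change, with the list of smooth muscle phenotype given whole. On the array miR-21a-5p is called miR-21-5p and miR-451a miR-451. Processed log2 values were matched to miRNAs within 0.15 on the log2 scale for 169 miRNAs, with miR-143-3p and miR-145-5p among them. Alternatives changed the scaling, background, summary over probes, filter, floor, covariates, test and threshold, or left out arrays.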

Additional observations from a re-analysis of the deposited data

Results flagged for a closer look

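Arrays far from the rest of their group were sought in 12 groups of 4 or 6 arrays, for the 3 miRNAs and the ratio of the main arms. Such a search marks about 1 group in 20 by chance. It marked OVA/OVA replicate 2, with a log2 level of miR-145-5p of 6.70 that lay above the other 5 arrays of its group, and a log2 ratio of miR-143-3p to miR-145-5p of 4.51 that lay below them. Both values come from the same array. Without it the log2 difference between OVA/OVA DEX and OVA/OVA for miR-145-5p was 0.52 (adjusted p = 0.0084 by limma), and that of the ratio was -0.22 (exact permutation test, adjusted p = 0.095). The ratios of the 2 groups were then fully apart, and the p of the ratio was at the lower limit of its test and could not pass alone.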

How the results depend on the processing

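The values here are log2 differences of miR-143-3p, miR-145-5p and miR-145-3p unless named otherwise, and the cause of a change was not tested. Normexp added the constant of 50 given above, which is large beside the signals of miR-145. For OVA/OVA DEX minus OVA/OVA the calls were lost without scaling (0.60, 0.74 and 0.99), within slide 2 (0.17, 0.27 and 0.37), without both OVA/OVA DEX arrays of slide 1 (0.17, 0.19 and 0.36) and where a 2-fold change was also required (0.31, 0.45 and 0.70). They were lost for miR-143-3p and miR-145-5p within slide 1 (0.44 and 0.55) and under quantile normalization (0.11 and 0.63), for miR-145-5p by the exact Mann-Whitney test (0.45) and under normexp (0.019), and for miR-145-3p with the mean over probes (0.32) and for 2 of its probes alone (0.43 and 0.29). miR-145-3p reversed under normexp and for 1 probe (-0.21 for each). The count of miRNAs past the threshold there was 142 in the main setting, 23 without scaling, 93 under quantile normalization and 59 under normexp. It was 67 and 45 within slides 1 and 2, and 34 with the 2-fold requirement. In the deposited values 89 passed, but at most 169 miRNAs were tested there against 266, so the counts cannot be compared. The share of these calls that were higher in OVA/OVA DEX was 60.6%, against 43.5% without scaling, 90.2% with control spots and 74.3% with the percentile over all miRNAs. The smooth muscle phenotype list had 1 call without scaling and 4 under quantile normalization.

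For OVA/OVA DEX minus PBS/PBS the direction reversed without scaling (-0.62, -0.56 and -0.41), with the percentile over all miRNAs for miR-143-3p and miR-145-5p (-0.13 and -0.068) and without both OVA/OVA DEX arrays of slide 1 for miR-145-5p (-0.016). For OVA/OVA DEX minus PBS/OVA, miR-143-3p passed in the deposited values (0.30). For OVA/OVA minus PBS/PBS calls were gained without scaling (-1.22, -1.30 and -1.40) and, for miR-143-3p and miR-145-5p, with control spots (-0.78 and -0.86) and with the percentile over all miRNAs (-0.66 and -0.74). There miR-145-5p reversed under normexp (0.42), and miR-145-3p under normexp (0.90), with brightness as a covariate (0.090), with the mean over probes (0.0025) and for 2 probes alone (0.21 and 0.33). For OVA/OVA minus PBS/OVA all 3 gained a call with control spots (-0.69, -0.67 and -0.91). There miR-143-3p reversed with brightness as a covariate (0.0053) and under quantile normalization (0.034), miR-145-5p with brightness (0.030), slide as a block (0.015), within slide 1 (0.12) and under normexp (0.27), and miR-145-3p under normexp (0.43) and for 1 probe (0.21). For PBS/OVA minus PBS/PBS, miR-145-5p reversed under normexp (0.15), and miR-145-3p under normexp (0.47), with brightness (0.16), slide as a block (0.051), the mean over probes (0.022) and for 1 probe (0.36).

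The log2 ratio of miR-143-3p to miR-145-5p reversed under normexp for PBS/OVA minus PBS/PBS (-0.23), OVA/OVA minus PBS/PBS (-0.58) and OVA/OVA DEX minus OVA/OVA (0.28), within slide 1 for OVA/OVA minus PBS/PBS (-0.069) and within slide 2 for OVA/OVA minus PBS/OVA (0.018). Within slide 2 the correlations of miR-145-3p with miR-143-3p (0.68) and with miR-145-5p (0.65) did not pass.

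With each array left out in turn, miR-145-5p ranged from 0.36 to 0.56 for OVA/OVA DEX minus OVA/OVA and lost its call without OVA/OVA DEX replicate 1 or 4, while the other 2 miRNAs kept theirs (0.25 to 0.38 and 0.58 to 0.85). Small differences changed sign for miR-145-5p in OVA/OVA minus PBS/OVA (-0.10 to 0.056, without replicate 3 of PBS/OVA or 6 of OVA/OVA), for miR-145-3p in PBS/OVA minus PBS/PBS (-0.13 to 0.10, without PBS/PBS replicate 2 or PBS/OVA replicate 2) and for the ratio in OVA/OVA minus PBS/OVA (-0.087 to 0.055, without replicate 2 of either group). Where 1 PBS/PBS array was left, it was assumed to vary like the other groups.

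The replicate number was also used as a block, entered as a correlation between arrays of the same number and not as a covariate. The differences for OVA/OVA DEX minus OVA/OVA were then 0.31, 0.45 and 0.70 (adjusted p = 0.0079, 0.0150 and 0.0085 by limma), 142 miRNAs passed and no call changed. The numbers did not pair the arrays. Over 18 same-numbered pairs r ran from -0.79 to 0.40, and 0 arrays were closest to an array of their own number. Signal over background limits miR-145-3p, with 4 of 320 spots well above background.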
